A study of Homo sapiens with 6 samples.

Results

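Intermediate filament and lamin mRNAs were examined in HEK293T, a line derived from human embryonic kidney and expressing SV40 large T antigen, after silencing of LOC550643. The set holds 10 genes taken by symbol, the keratins KRT8, KRT10, KRT17, KRT18 and KRT19, vimentin (VIM), nestin (NES) and the lamins LMNA, LMNB1 and LMNB2, out of 26391 rows of the table. Each of the 10 symbols had 1 row. Poly-A RNA was sequenced from 3 samples that received 4 pooled siRNAs to LOC550643, a gene whose small protein binds the decapping scaffold EDC4, and from 3 that received a non-silencing siRNA. Both groups were transfected with Dharmafect at 50% confluency and lysed 48 hours later, in the same cell line and medium, and the study asked whether mRNA levels at steady state differ between them. With 1 pool and 1 control siRNA, loss of the target and any unrelated action of these reagents cannot be told apart. Nothing in the labels says that the 3 samples of a group were grown as independent cultures, so the p-values speak only to the spread among them, which may be technical. Libraries of the LOC550643 siRNA group are called silenced libraries from here on.

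Intermediate filaments are cytoskeletal polymers of coiled-coil proteins that resist mechanical strain. Keratins of epithelial cells form obligate pairs of a type I and a type II chain, and KRT18 (type I) with KRT8 (type II) is the pair of simple epithelia such as kidney tubules. Vimentin polymerises on its own in mesenchymal and many cultured cells, and nestin, typical of neural progenitors, assembles with it. Lamins form the meshwork under the inner nuclear membrane, with A-type lamins from LMNA and B-type lamins from LMNB1 and LMNB2. HEK293 cells are known to hold vimentin, keratins and neuronal filament proteins side by side.

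The control libraries held 32309964 to 36082404 read pairs on genes, as inferred from the values, and the silenced libraries held 8604236 to 35249993, with replicate 3 the shallowest. Control replicate 2 stood farthest from its group (chi-square per degree of freedom 31.2 and 41.6 against the other controls, which were at 9.43 from each other). The target, listed as LINC01420, stood at 52.9 ± 2.88 CPM in control and 5.74 ± 0.286 CPM in silenced libraries (SD, n = 3 each), where CPM is reads per 1000000 after scaling for composition. Of 10 genes that mark HEK293 cells, 9 passed the filter on low values, with NEFL at 102.9, GATA3 at 23.8 and PAX2 at 16.6 CPM in the controls, and PAX8 was near 0. Their summed level was 370.1 to 388.3 CPM in control and 344.8 to 404.6 CPM in silenced libraries.

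Divided by transcript length, vimentin was by far the most abundant of the 10 mRNAs. By mean CPM over the 6 libraries, not divided by length, vimentin lay at percentile 99.6 of all genes tested. Its control level was 382.5 ± 23.5 CPM per kb. LMNB1 followed at 73.3 ± 3.10, LMNB2 at 62.0 ± 1.22, KRT18 at 50.4 ± 4.65, LMNA at 21.3 ± 1.10, KRT8 at 20.1 ± 1.65, KRT10 at 11.1 ± 0.765, NES at 1.81 ± 0.256 and KRT17 at 0.0983 ± 0.0155 CPM per kb (SD, n = 3 control libraries). The 3 control values of each gene lay clear of those of the next gene in this order, except for LMNA and KRT8, which overlapped. With LOC550643 siRNA the order was the same and LMNA, at 26.8 ± 2.54, no longer overlapped KRT8, at 20.9 ± 0.949 CPM per kb. KRT19, the smallest keratin of simple epithelia, had no read in any of the 6 libraries; a count of 0 allows up to 3 read pairs, or 0.0812 to 0.357 CPM depending on the library, for counting error only.

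**Figure D1:**
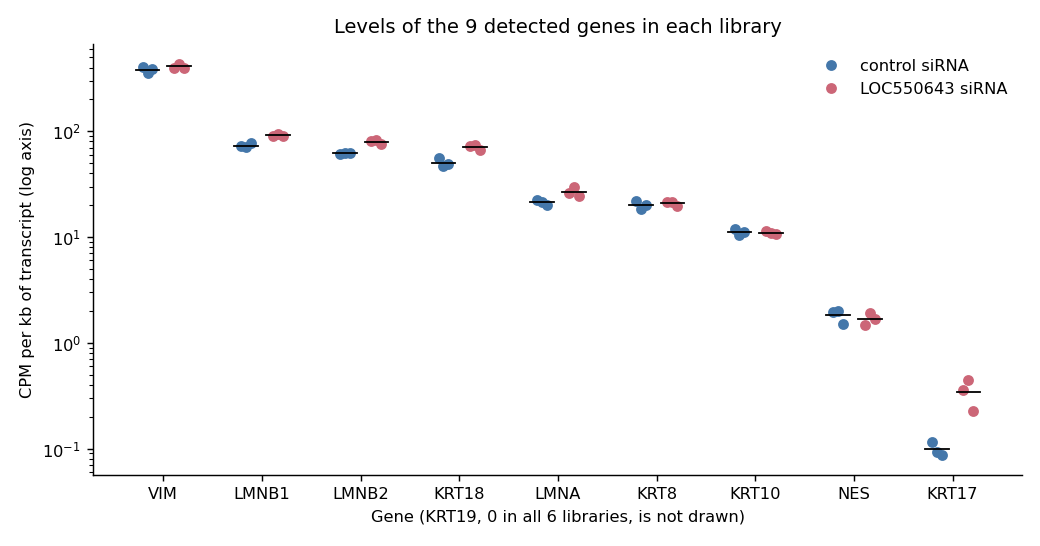
Level of each gene in CPM per kb of transcript (log axis), with 1 point per library, control siRNA in blue and LOC550643 siRNA in red, and the group mean as a black line. VIM lies above all others, the red points of KRT18, LMNB1, LMNB2, LMNA and KRT17 lie above the blue ones, and those of VIM, KRT8, KRT10 and NES overlap.

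Of the 10 genes, 5 were higher after LOC550643 siRNA, 0 were lower, 4 did not pass the test and KRT19 could not be tested. The 5 were KRT17, KRT18 and all 3 lamins, and at each of them the groups did not overlap. Across the transcriptome 35.6% of the 16253 genes tested were called at a limma adjusted p under 0.05, 17.5% higher and 18.1% lower, and the groups did not overlap at 48.6%. The median log2 fold change was 0.33 over the 9 genes tested and -0.02 over all genes tested. KRT17 passed the filter through its silenced libraries alone (3 of 3, against 0 of 3 controls), so it could be tested only because it was high there, and nothing about the set is drawn from these counts. Fold changes are LOC550643 siRNA over control, on the log2(value + 1 deposited unit) scale, which understates changes of low genes such as KRT17. In whole cultures, more cells that carry an mRNA and more of it per cell cannot be told apart.

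**Figure D2:**
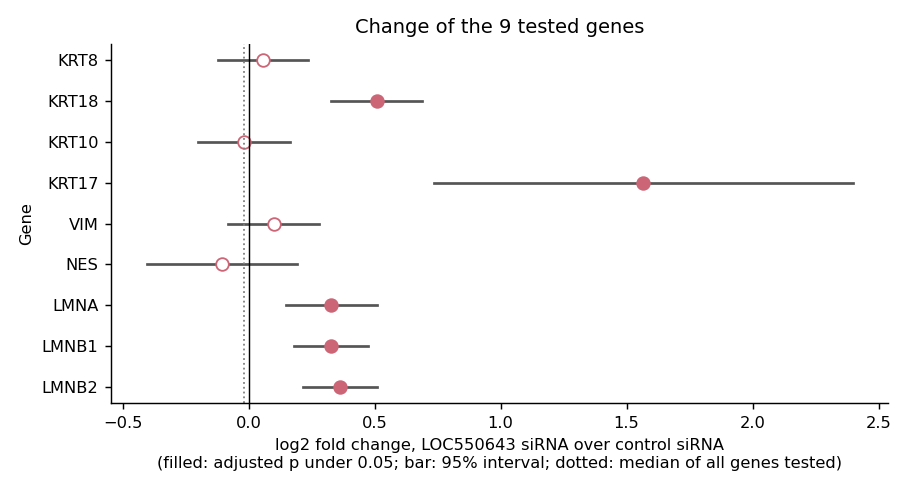
Log2 fold change of the 9 tested genes with its 95% interval (limma), filled where the adjusted p was under 0.05; the dotted line is the median of all genes tested, -0.02. The intervals of KRT18, KRT17 and the 3 lamins lie above 0, and those of KRT8, KRT10, VIM and NES span it.

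Among the keratins, KRT18 rose. Its control libraries 1 to 3 stood at 81.1, 68.3 and 70.9 CPM and its silenced libraries 1 to 3 at 106.6, 108.7 and 97.5 CPM. Every silenced library was above every control library. The log2 fold change was 0.51 (SE 0.0816, 95% interval 0.33 to 0.69, limma adjusted p = 0.000714), a ratio of 1.42. In the authors' deposited table the log2 value is 0.51 and its adjusted p 1.24e-05. KRT8, its filament partner, did not pass the test. KRT8 stood at 46.6, 39.5 and 43.0 CPM in the controls and at 45.5, 46.1 and 42.3 CPM with LOC550643 siRNA, with groups that overlapped (log2 0.06, 95% interval -0.12 to 0.23, limma adjusted p = 0.625). That interval leaves room for a rise of KRT8 smaller than the fitted rise of KRT18.

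Within each library the ratio of KRT8 to KRT18, per kb, was -1.35, -1.34 and -1.28 on the log2 scale in the controls and -1.78, -1.79 and -1.76 with LOC550643 siRNA. All 3 silenced libraries lay below all 3 controls. The difference was -0.45 (exact two-sided permutation p = 0.1, the smallest that 3 against 3 libraries can give, adjusted p = 0.5 over the 5 pairs of genes that could be compared). KRT18 made up 61.6% ± 0.646 of the keratin mRNA of the set in control and 69.0% ± 0.427 in silenced libraries, KRT8 24.6% ± 0.469 and 20.1% ± 0.133 (SD, n = 3 each, per kb).

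The pair lies head to head on chromosome 12 (hg19), KRT18 on the plus strand at 53342843 to 53346685 and KRT8 on the minus strand at 53290971 to 53343650, so that their rows share 808 bases. KRT8 is listed by the transcript NR_045962, which begins inside KRT18. In the GENCODE annotation of GRCh37, 375 of the 1413 exon bases of the main KRT18 transcript, 53343000 to 53343374 in its first exon, are also exons of KRT8 transcripts on the other strand. Since the header shows no strand option for the counting, reads there may have been given to both genes, and how much of either level they make up was not tested. The same annotation names 67 pseudogenes after KRT18 and 51 after KRT8, and reads that fit several copies make both levels uncertain.

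**Figure D3:**
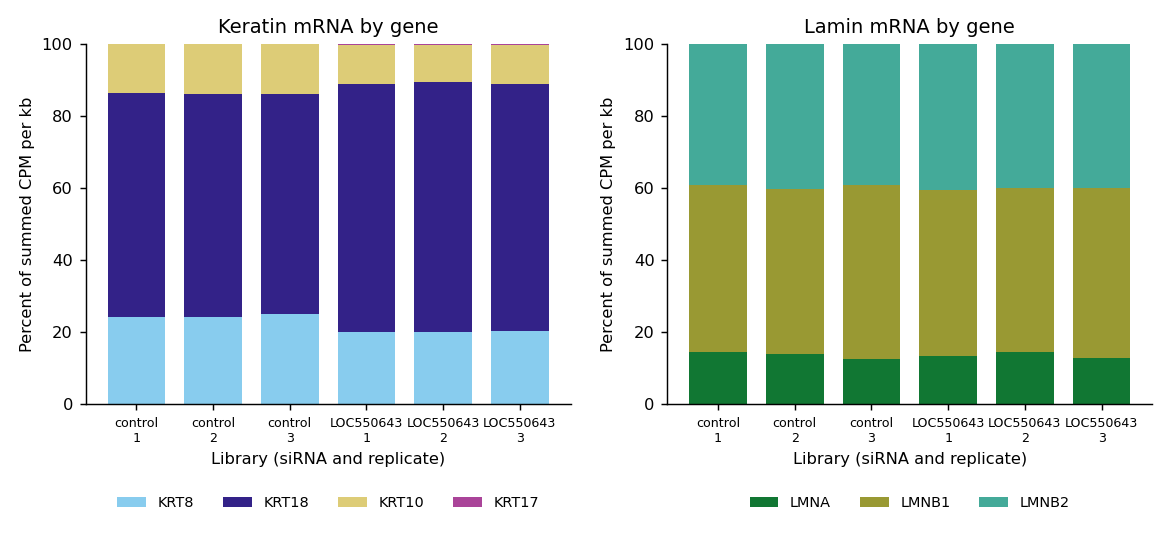
Share of each gene in the summed CPM per kb of the keratins (left) and of the lamins (right), as stacked bars for the 6 libraries. The KRT18 share is 60.9% to 62.2% in the control libraries and 68.5% to 69.4% in the silenced libraries, while the 3 lamins keep nearly the same shares in all libraries.

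KRT10, a type I keratin of differentiating epidermis, did not pass the test. Its levels were 25.5, 22.2 and 23.5 CPM in control and 24.2, 23.2 and 22.7 CPM in silenced libraries (log2 -0.02, 95% interval -0.20 to 0.16, limma adjusted p = 0.885), and the groups overlapped. It lies on chromosome 17 at 38974369 to 38978863 (hg19) and overlaps TMEM99 on the opposite strand over 3427 bases. TMEM99 did not pass either (log2 -0.18, limma adjusted p = 0.245).

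KRT17, a type I keratin of basal and injured epithelium, rose from a very low level. The controls held 6, 5 and 5 read pairs and the silenced libraries 20, 20 and 3, the last in the shallowest library. Scaled for depth these were 0.181, 0.145 and 0.135 CPM against 0.565, 0.690 and 0.357 CPM, and the groups did not overlap. That gap hangs on silenced replicate 3, at 3 read pairs. The log2 fold change was 1.57 (SE 0.379, 95% interval 0.74 to 2.40, limma adjusted p = 0.00782). KRT17 entered the test through its silenced libraries alone, so this p-value is given as description only. Summed over libraries, 43 against 16 read pairs gave a ratio of 3.87 after scaling, with a 95% interval of 2.14 to 7.36 for counting error only. In the authors' deposited table the log2 value is 1.95 and its adjusted p 0.000209. The annotation names 8 pseudogenes after KRT17, so these few reads are uncertain as to their copy.

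Apart from KRT10, the keratinocyte markers examined were at or near 0 in both groups. Of the 8 markers 0 passed the filter, KRT1 and KRT6A were at 0 in every library, and KRT5 and KRT14 were at or below 0.0298 CPM on average in both groups. Their sum was 0.162 to 0.377 CPM in control and 0.303 to 0.476 CPM in silenced libraries, and its part in the KRT17 result was not tested. Of 51 further keratin rows 27 were at 0 in all libraries and 5 were tested, of which 1 rose and 2 fell. The hair keratin KRT35 fell from 1.45 ± 0.0864 to 0.419 ± 0.120 CPM (log2 -1.75, limma adjusted p = 0.000539). Its controls held 50, 52 and 50 read pairs and its silenced libraries 14, 16 and 2. The last, in the shallowest library, is below the 3 read pairs that a count of 0 allows. The hair follicle keratin KRT75 rose from 0.612 ± 0.0104 to 1.79 ± 0.540 CPM (log2 1.46, adjusted p = 0.0012). KRT222, a keratin-like gene without a full rod domain, fell from 2.54 ± 0.208 to 1.45 ± 0.236 CPM (log2 -0.81, adjusted p = 0.00576). By position, 2 of the 3 tested keratins of chromosome 12, KRT18 and KRT75, were higher, and of 6 on chromosome 17 KRT17 was higher and 2 were lower. These counts and those of the further keratins are to be read against 17.5% higher and 18.1% lower over all genes tested. No pattern by position is drawn from so few genes.

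Vimentin did not pass the test. It stood at 856.3, 758.2 and 822.9 CPM in the controls and at 840.5, 927.2 and 843.0 CPM with LOC550643 siRNA, and the groups overlapped (log2 0.10, SE 0.0825, 95% interval -0.08 to 0.28, limma adjusted p = 0.374). At 26130 to 30412 read pairs in the control libraries, counting error is small beside the spread between libraries. VIM lies on the plus strand of chromosome 10 at 17270258 to 17279592 (hg19), and VIM-AS1, an antisense RNA, overlaps its start over 1727 bases. VIM-AS1 is listed at 270.3 CPM in control and 300.7 CPM in silenced libraries (log2 0.15, adjusted p = 0.146), and with counting that ignores strand, reads of the pair cannot be told apart. Vimentin made up 82.1% ± 0.565 of the per-kb mRNA of the 6 detected cytoplasmic genes in control and 79.5% ± 0.783 in silenced libraries (SD, n = 3 each). This is a share of a sum in which KRT18 held 10.8% in control and 13.9% in silenced libraries. The mean level of vimentin itself was 382.5 and 409.7 CPM per kb, control first.

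Nestin, at 10.8, 11.0 and 8.43 CPM in control and 8.13, 10.6 and 9.23 CPM in silenced libraries, did not pass either (log2 -0.11, SE 0.136, 95% interval -0.41 to 0.19, limma adjusted p = 0.571). Its groups overlapped, and its interval was the widest among the members above 1 CPM. The log2 ratio of VIM to NES per kb was 7.72 ± 0.251 in control and 7.93 ± 0.127 in silenced libraries (difference 0.21, exact two-sided permutation p = 0.3, adjusted p = 0.667).

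The lamins rose together and by nearly the same factor. LMNA, the source of lamins A and C, stood at 71.8, 68.9 and 64.8 CPM in the controls and at 84.6, 95 and 78.9 CPM with LOC550643 siRNA (log2 0.33, SE 0.0819, 95% interval 0.15 to 0.51, limma adjusted p = 0.00924). LMNB1, the lamin often lost in senescent cells, stood at 244.2, 240.7 and 260.4 CPM and at 308.6, 319.5 and 307.1 CPM (log2 0.33, SE 0.0669, 95% interval 0.18 to 0.48, adjusted p = 0.00302). LMNB2, the other B-type lamin, stood at 280.4, 289.9 and 290.4 CPM and at 372.5, 380.1 and 353.2 CPM (log2 0.36, SE 0.0669, 95% interval 0.21 to 0.51, adjusted p = 0.0017). For each gene all silenced libraries were above all controls. The authors' deposited table lists log2 fold changes of 0.33, 0.32 and 0.36 for LMNA, LMNB1 and LMNB2, with adjusted p of 0.00828, 0.00167 and 0.000367.

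Summed per kb, lamin mRNA was 156.6 ± 2.71 in control and 198.4 ± 7.27 CPM per kb in silenced libraries (SD, n = 3 each), a ratio of 1.27. Its make-up differed little. LMNB1 held 46.8% ± 1.18 and 46.4% ± 0.830, LMNB2 39.6% ± 0.699 and 40.1% ± 0.465, and LMNA 13.6% ± 0.918 and 13.5% ± 0.782, control first. The log2 ratio of LMNA to LMNB1 differed between groups by 0.0001, that of LMNA to LMNB2 by -0.03 and that of LMNB1 to LMNB2 by -0.03 (exact two-sided permutation p = 1, 0.7 and 0.4, each adjusted p at least 0.667), with SDs of 0.0355 to 0.130 within groups. LMNA lies on chromosome 1 at 156084461 to 156109880, LMNB1 on chromosome 5 at 126112315 to 126172712 and LMNB2 on chromosome 19 at 2428163 to 2456966 (hg19), and LMNB2 holds MIR7108, which was below 1 CPM, on the same strand.

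Promoter windows of 300 bases, 250 before and 50 after an annotated start, were in the RefSeq table (GRCh38.p14) for 7 of the 10 genes and are given here for 2 lamins that rose, for VIM and NES, which did not pass, and for KRT10, the one member with a TATA box in its window. LMNB1 has windows at 2 annotated starts, and both are given. Their positions were found by exact match in GRCh37: LMNB1 at chr5:126112065-126112364 for the start of its row and chr5:126112578-126112877 for a start 513 bases downstream (plus strand), LMNB2 at chr19:2456908-2457207 (minus strand), VIM at chr10:17269990-17270289 (plus strand), NES at chr1:156647150-156647449 (minus strand) and KRT10 at chr17:38978817-38979116 (minus strand). Capitals mark the CCAAT box (CCAAT), the GC box (GGGCGG), the TATA box (TATAAA) and the E-box (CACGTG) on either strand.
LMNB1, start of the row: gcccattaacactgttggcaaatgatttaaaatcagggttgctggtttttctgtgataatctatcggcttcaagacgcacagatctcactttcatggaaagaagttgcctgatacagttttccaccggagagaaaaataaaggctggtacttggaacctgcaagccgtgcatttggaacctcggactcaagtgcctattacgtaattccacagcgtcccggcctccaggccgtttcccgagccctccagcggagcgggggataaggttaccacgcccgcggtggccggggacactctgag
LMNB1, downstream start: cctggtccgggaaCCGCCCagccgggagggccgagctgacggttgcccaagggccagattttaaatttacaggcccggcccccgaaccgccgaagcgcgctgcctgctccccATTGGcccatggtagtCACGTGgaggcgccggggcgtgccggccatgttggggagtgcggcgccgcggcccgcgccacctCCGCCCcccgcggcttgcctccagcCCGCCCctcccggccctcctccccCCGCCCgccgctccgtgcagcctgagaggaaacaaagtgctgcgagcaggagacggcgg
LMNB2: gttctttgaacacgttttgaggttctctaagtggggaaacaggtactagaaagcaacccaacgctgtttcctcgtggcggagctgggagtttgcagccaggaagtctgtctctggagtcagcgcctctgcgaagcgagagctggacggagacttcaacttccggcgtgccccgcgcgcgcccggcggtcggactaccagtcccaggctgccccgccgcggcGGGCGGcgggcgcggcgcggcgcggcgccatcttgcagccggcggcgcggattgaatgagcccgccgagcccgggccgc
VIM: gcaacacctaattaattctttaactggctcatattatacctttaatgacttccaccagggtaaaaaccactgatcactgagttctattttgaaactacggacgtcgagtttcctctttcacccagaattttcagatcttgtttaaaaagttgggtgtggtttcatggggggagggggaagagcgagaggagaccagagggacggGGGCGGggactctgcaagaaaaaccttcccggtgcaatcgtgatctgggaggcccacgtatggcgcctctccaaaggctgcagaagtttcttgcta
NES: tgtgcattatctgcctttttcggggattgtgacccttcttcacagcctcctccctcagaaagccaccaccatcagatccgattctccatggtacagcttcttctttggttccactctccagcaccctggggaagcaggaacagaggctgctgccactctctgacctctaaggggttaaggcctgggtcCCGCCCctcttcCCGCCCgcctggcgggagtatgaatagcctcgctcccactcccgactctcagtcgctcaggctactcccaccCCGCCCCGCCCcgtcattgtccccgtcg
KRT10: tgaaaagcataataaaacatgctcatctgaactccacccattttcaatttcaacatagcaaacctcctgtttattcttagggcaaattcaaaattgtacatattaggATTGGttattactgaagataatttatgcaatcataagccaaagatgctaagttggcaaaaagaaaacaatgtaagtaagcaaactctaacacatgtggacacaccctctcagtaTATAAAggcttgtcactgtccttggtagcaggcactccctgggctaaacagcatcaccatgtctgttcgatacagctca
The LMNB1 window at the start of the row holds none of the 4 motifs at a GC content of 52.0%, and the downstream one holds 4 GC boxes, 1 CCAAT box and 1 E-box at 73.7%. The LMNB2 window holds 1 GC box and has a GC content of 67.7%. NES, which did not pass the test, holds 4 GC boxes at 60.3%, as many as the downstream LMNB1 window. VIM has 1 GC box at a GC content of 48.0%, and KRT10 has 1 TATA box and 1 CCAAT box at 37.7%. Of 35116 windows in the table, 45.0% hold a GC box, 34.6% a CCAAT box, 11.5% a TATA box and 7.3% an E-box, and their median GC content is 58.7%. A match describes the letters of the window and is not evidence of binding. The entries of LMNA and KRT8 lie far from the starts of their rows, farther than the downstream LMNB1 start, and are not shown.

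Among mRNAs of lamin partners and other proteins of the nuclear envelope, some were higher and some lower. Their counts are to be read against the 17.5% higher and 18.1% lower over all genes. Of 17 tested, 3 rose, 5 fell and 9 missed the threshold (median log2 -0.09, beside -0.02 over all genes tested). SUN2, which links the lamina through the nuclear envelope to the cytoskeleton, rose from 123.7 ± 4.95 to 196.6 ± 11.1 CPM (log2 fold change 0.67, limma adjusted p = 4.8e-05). EMD, the LMNA-binding protein emerin, rose from 216.5 ± 10.3 to 300.8 ± 16.6 CPM (log2 0.47, adjusted p = 0.000507). NRM, nurim, fell from 45.9 ± 2.01 to 17.7 ± 2.01 CPM (log2 -1.38, adjusted p = 3.65e-06), and its row is listed at 7 genome positions. LEMD2, another LEM-domain protein, fell from 101.7 ± 1.90 to 77.5 ± 2.81 CPM (log2 -0.39, adjusted p = 0.000855). At each of these 4 the groups did not overlap.

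Of the 6 genes of lamin processing, 2 rose and 1 fell, beside 17.5% higher and 18.1% lower over all genes tested. ICMT, which methylates the farnesylated end of lamins and other proteins, rose from 139.1 ± 2.89 to 189.9 ± 3.16 CPM (log2 fold change 0.45, limma adjusted p = 0.000297). FNTB, the farnesyltransferase beta subunit, fell from 19.9 ± 1.08 to 14.8 ± 1.34 CPM (log2 -0.43, adjusted p = 0.00537). It shares its strand and most of its bases with the readthrough gene CHURC1-FNTB, so its reads are uncertain. NARF, which binds prelamin A, rose from 60.7 ± 4.13 to 74.2 ± 6.75 CPM (log2 0.29, adjusted p = 0.0214). Its call was lost without control replicate 3 (adjusted p = 0.0826) and without silenced replicate 2 or 3 (0.0789 and 0.083), and with scaling by library totals (0.0698). ZMPSTE24, the protease that matures lamin A, did not pass (log2 -0.07, adjusted p = 0.485).

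Filament genes outside the set are to be read against the same shares. Of 9 tested genes of types III and IV and the lens filaments, 1 rose, 3 fell and 5 missed the threshold (median log2 -0.27). INA, the neuronal filament protein internexin, fell from 5.52 ± 0.775 to 2.44 ± 0.294 CPM (log2 -1.17, limma adjusted p = 0.000226), while NEFM, the medium neurofilament chain, rose from 49.9 ± 3.08 to 67.0 ± 7.68 CPM (log2 0.42, adjusted p = 0.00424). NEFL, the light chain, was at 0.03 (adjusted p = 0.78). GFAP fell from 2.38 ± 0.276 to 1.47 ± 0.304 CPM (log2 -0.70, adjusted p = 0.0175), a call lost without control replicates 1 or 3 (0.0506 and 0.0743) or silenced replicate 1 (0.0586), with DESeq2 (0.0625) and on libraries thinned to 1 depth (log2 -0.34, 0.456). SYNM, synemin, which assembles with vimentin, fell from 12.7 ± 2.94 to 8.90 ± 1.02 CPM (log2 -0.49, adjusted p = 0.0274), a call lost without control replicate 2 (log2 -0.32, 0.0727) or silenced replicates 2 or 3 (0.111 and 0.0518), and on thinned libraries (log2 -0.31, 0.148).

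Of 13 tested plakins and desmosome genes, which anchor filaments, 2 rose, 3 fell and 8 missed the threshold (median log2 -0.12). Over all genes tested 17.5% were higher and 18.1% lower. TCHP, trichoplein, a keratin-binding protein of desmosomes and centrioles, rose from 32.2 ± 2.38 to 51.2 ± 3.56 CPM (log2 fold change 0.67, limma adjusted p = 0.000163). PKP4, a plakophilin, rose from 70.9 ± 3.72 to 90.1 ± 1.18 CPM (log2 0.35, adjusted p = 0.00234), and FAM83H, which organises keratin filaments, fell from 10.2 ± 0.483 to 7.16 ± 0.985 CPM (log2 -0.52, adjusted p = 0.00673). DSC2, a desmosomal cadherin, fell from 56.5 ± 2.28 to 48.7 ± 0.877 CPM (log2 -0.21, adjusted p = 0.0307). That call was lost without control replicate 3 (0.101), without silenced replicates 1, 2 or 3 (0.0798, 0.0653 and 0.0647), and with trends in GC content and length removed (log2 -0.01, 0.96). Plectin (PLEC) and desmoplakin (DSP), the main linkers of vimentin and of keratins, did not pass (log2 -0.12 and 0.03, adjusted p = 0.639 and 0.912). Their 95% intervals were -0.54 to 0.29 and -0.30 to 0.35. Control replicate 2 stood at 140.8 CPM for PLEC, with the other controls at 95.7 and 79.9 CPM. For DSP it stood at 150.7 CPM, with the other controls at 100.9 and 95.5 CPM.

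**Figure D4:**
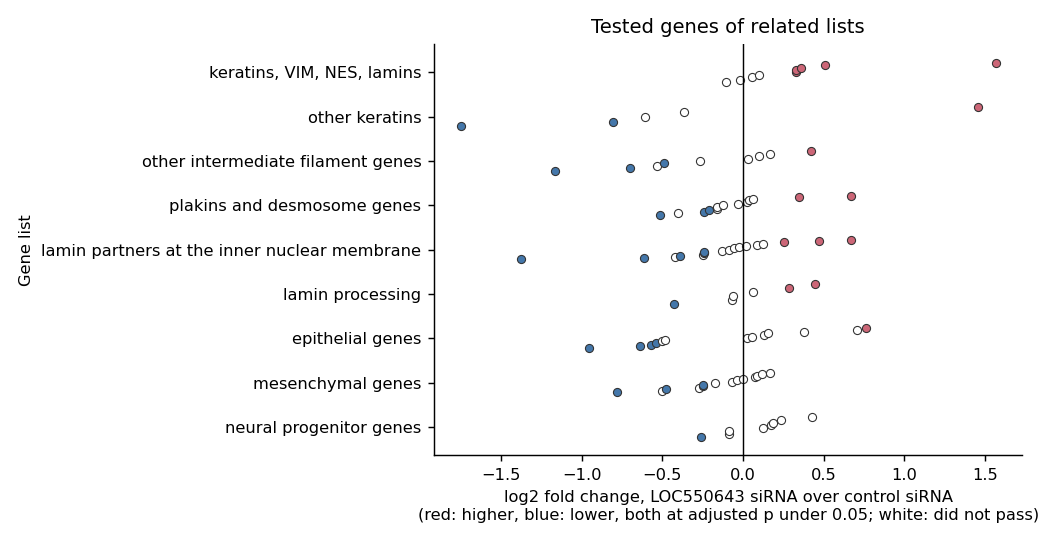
Log2 fold change of each tested gene of the set (top row) and of 8 related lists, red where higher and blue where lower at an adjusted p under 0.05, white where the test was not passed. The top row has 5 red points and 0 blue ones, and each list of more than 1 called gene except the mesenchymal one holds both colours. Over all genes tested 17.5% were higher and 18.1% lower.

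Of 13 tested epithelial genes 1 rose, 4 fell and 8 missed the threshold (median log2 0.03). The tight junction genes TJP1 and OCLN fell from 68.74 to 43.98 and from 44.96 to 30.98 CPM (log2 -0.64 and -0.54, limma adjusted p = 0.000125 and 0.000218). TJP3 fell by 0.57 and CLDN7, below 2 CPM, by 0.95 on the log2 scale (adjusted p = 0.00459 and 0.00681). CLDN7 was not called with libraries thinned to 1 depth (-0.44, 0.377). On the other strand, ELP5, at a mean of 102.5 CPM, shares 38 bases with CLDN7, and APBA3, at 22.4 CPM, shares 41 with TJP3. With no strand option in the counting, reads there may have been given to both genes, and their part was not tested. CDH1, E-cadherin, was at 0.03 (adjusted p = 0.892). Of 14 mesenchymal genes 0 rose, 4 fell and 10 missed the threshold (median log2 -0.12). The epithelial and mesenchymal counts are to be read against 17.5% higher and 18.1% lower over all genes tested. Nothing about either class is drawn from these counts. SPARC, a matrix protein, fell from 18.1 to 10.6 CPM (log2 -0.78, adjusted p = 0.000286). CDH2, N-cadherin, the repressor SNAI1 and the protease MMP2 had log2 fold changes of -0.25, -0.47 and -0.24 (adjusted p = 0.0157, 0.0279 and 0.0416).

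The calls of CDH2, SNAI1 and MMP2 were lost under several other choices. CDH2 was not called with trends in GC content and length removed (adjusted p = 0.0645). SNAI1 was not called with no filter on low values, with DESeq2 or on thinned libraries (0.0612, 0.105 and 0.272; log2 -0.39 in the last). MMP2 was not called with no filter, with DESeq2, with voom, on thinned libraries or with these trends removed (0.057, 0.0724, 0.0541, 0.0951 and 0.0876). Without control replicates 1 and 3 and silenced replicates 1 and 3 the adjusted p of CDH2 was 0.0552, 0.0524, 0.0555 and 0.0539. For SNAI1, omitting control replicate 1 or 2 gave 0.106 or 0.075, and omitting silenced replicate 2 or 3 gave 0.0653 or 0.0595. For MMP2, omitting control replicate 1, 2 or 3 gave 0.109, 0.0561 or 0.071, and omitting silenced replicate 1 or 3 gave 0.067 or 0.14.

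Of 8 tested neural progenitor genes, the class in which nestin is usual, 1 fell and 7 did not pass (median log2 0.15). Over all genes tested 17.5% were higher and 18.1% lower. HES1, a Notch target, fell from 125.5 ± 2.65 to 105.3 ± 9.76 CPM (log2 -0.26, limma adjusted p = 0.0234), a call lost without control replicate 1 (0.0709) or silenced replicate 1 (0.0868), and with trends in GC content and length removed (log2 -0.19, 0.0693). SOX2 and PAX6 were at 0.12 and -0.09 (adjusted p = 0.371 and 0.378). Fibroblast markers, which accompany vimentin, summed to 227.7 to 245.5 CPM in control and 249.0 to 271.0 CPM in silenced libraries. Of 9, 6 were tested, with a median log2 of -0.42, and the higher sum came with FBLN1 (157.5 and 184.5 CPM, control first), the other 5 having fitted values below 0; THY1 was at 0 in all libraries and COL1A2 near 0, and their part in the vimentin values was not tested. FBLN1 rose (log2 0.23, adjusted p = 0.0304), and PDGFRA and COL3A1 fell by 1.13 and 0.53 (0.00219 and 0.00273). The FBLN1 call was lost without control replicates 2 and 3 (0.0573 and 0.0864) and without silenced replicates 2 and 3 (0.13 and 0.0626). It was also lost with scaling by library totals (log2 0.15, 0.109), with upper quartile scaling (0.0569), with no filter (0.0501) and on thinned libraries (0.0728).

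Over the 6 libraries, log2 levels relative to the control mean were compared among genes with a mean of at least 1 CPM. Nearest to KRT17, the called member with the largest change, were DHX37, LONP1 and KDM8, at root mean square distances of 0.249, 0.257 and 0.286. KRT17 itself lay below 1 CPM, so genes at its own level were not searched. KRT17 rests on few reads, so KRT18 was also matched, a choice made after the values were seen. Nearest to KRT18 were ZDHHC14, FKBP8 and FCGRT, at distances of 0.0146, 0.024 and 0.0323, with log2 fold changes of 0.50, 0.53 and 0.49. As genes were picked by these same values, fold changes close to that of KRT18 follow from the choice.

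**Figure D5:**
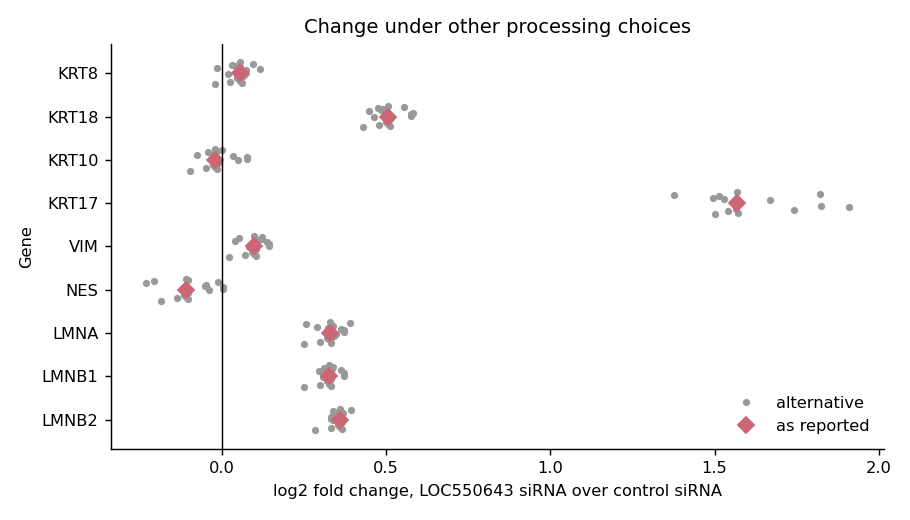
Log2 fold change of the 9 tested genes as reported (diamond) and under each of the other processing choices (grey points; 17 for KRT17 and 20 for each other gene). KRT18, KRT17 and the lamins lie above 0 under all choices drawn, VIM does so at small values, and KRT8, KRT10 and NES have points on both sides of 0.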

How the data were processed

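Poly-A mRNA of 6 HEK293T samples (3 per siRNA) was read as dUTP libraries, paired, 75 bases. Per the labels' protocols, CASAVA 1.8.2 made the read files and STAR 2.4.0k placed the reads on hg19. Per the file headers, HOMER counted reads over exons with 1 row per gene and no strand option. How reads with several positions were treated is not given in the sources used here. The deposited values are a signal: reads per gene scaled by the authors to a common total of about 29401170 to 29401184 per library. They were whole multiples of 1 step (100% within 0.1 step), taken as 1 read end, which gives the read pairs. From the authors' own edgeR 3.6.8 comparison, log2 ratios and p-values are quoted as deposited. Transcript length and number of positions, other values of the table, were used as deposited by the authors.

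Genes of at least 0.304 CPM in 3 or more libraries by edgeR's filter (10 read pairs at the median depth, fewer in a shallow library; 16253 of 26391 rows, 4787 at 0) were TMM-scaled and tested with limma 3.58.1 across all genes (empirical Bayes with mean trend, two-sided, Benjamini-Hochberg) on log2(value + 1 deposited unit, 0.034 CPM). Intervals are 95%. Pairs of genes were compared by exact permutation over libraries; the KRT8/KRT19 and KRT18/KRT19 pairs could not be, as KRT19 was at 0. Counts and intervals of reads cover counting error only. Named are the members, up to 4 called genes of each list with the smallest p, and the target. Also named are the 3 genes nearest in profile to the most changed member, among genes with a mean of at least 1 CPM. Others named beside them, such as NEFL and CDH1, were looked up later. Members and lists were chosen with earlier results of these data known. One marker list is not reported here. Alternatives were other scalings, filters, pseudocounts, edgeR 4.0.16, DESeq2 1.42.0 and voom on recovered reads, thinning, removal of GC content and length trends (GENCODE transcripts on GRCh37, 97.2% of genes), a replicate block, and leaving out each library, in R 4.3.3 and Python 3.11.15. The test was checked on simulated data.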

Additional observations from a re-analysis of the deposited data

How the results depend on the processing

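KRT18, LMNA, LMNB1 and LMNB2 kept their direction and their call under all 20 alternatives run, with log2 fold changes of 0.43 to 0.58, 0.25 to 0.39, 0.25 to 0.37 and 0.28 to 0.39 and adjusted p up to 0.0057, 0.046, 0.0184 and 0.0122. KRT17 kept its call in the 17 that gave a value (log2 1.38 to 1.91, adjusted p up to 0.0481, without silenced replicate 2). It was not tested on thinned libraries or at a mean of at least 1 CPM, and DESeq2 gave it no adjusted p, so 4 members were called in these 3 and 5 in the other 17. VIM, KRT8, KRT10 and NES passed in none. KRT8 was at -0.021 with library totals and ranged from -0.014 (without control replicate 2) to 0.1154 with 1 library left out. KRT10 was at 0.051 on thinned libraries, at 0.077 with trends in GC content and length removed, with or without the replicate block, and at 0.034 and 0.0024 without control replicate 1 and silenced replicate 3. NES was at 0.0032 with these trends removed, with or without the block.

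The counts of genes higher and genes lower were 2844 and 2945, 2081 and 3979 with scaling by library totals, and 3730 and 2569 with GC content and length trends removed. At an adjusted p under 0.01 they were 1775 and 1744. With 1 library left out, 2065 to 2654 were higher and 2213 to 2852 lower. The log2 ratio of LMNA to LMNB1 differed by -0.074 to 0.051 and that of LMNA to LMNB2 by -0.083 to 0.018 with 1 library left out, so their signs are not fixed; KRT8 to KRT18 stayed at -0.47 to -0.43. With the replicate number as a block 2689 genes were higher and 2708 lower, and the same 5 of 9 tested members passed; over the 3 numbered pairs the KRT8 to KRT18 difference was -0.45 (exact sign-flip p = 0.25, the smallest possible). With the block the calls of SYNM (adjusted p = 0.0584) and FBLN1 (0.0525) were lost. Deviations of same-numbered libraries correlated at 0.06, -0.28 and -0.12, and those of differently numbered libraries at -0.14 to 0.25. These values do not settle whether equal numbers mark paired samples. Of 38 genes outside the set that were followed through the alternatives, 27 kept their call under all alternatives that gave a value. Depth limits KRT17, whose silenced replicate 3 held 3 read pairs, and KRT19. It also limits low genes outside the set. In silenced replicate 3, KRT35 held 2 read pairs, and CLDN7, KRT222, GFAP and KRT75 held 6, 10, 11 and 15.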
